A study of Homo sapiens with 48 samples.

Results

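The expression of 10 heat shock genes was followed across A382, an established human glioblastoma cell line: the small heat shock protein genes CRYAB, HSPB1 and HSPB8, the HSP70 genes HSPA1A, HSPA1B and HSPA8, HSPH1, HSP90AA1, DNAJB1 and BAG3. They were chosen by symbol, and all 10 were found among the 19102 genes of the table. Polyadenylated RNA was sequenced from 48 libraries, 44 of them from cells collected 9 days after infection with a guide RNA and 4 from cells treated with doxycycline for 2 days. Each knockout is named here by the target of its guides. The guides hit BRD8 and H2AZ (2 guides each, 4 libraries each) and 14 further targets with 2 libraries each, 1 per guide: RUVBL1, RUVBL2, MORF4L1, MORF4L2, TIP60, EP400, TRRAP, ACTL6A, DMAP1, GAS41, ING3, MRGBP, MEAF6 and VPS72. Most are subunits of the EP400/TIP60 complex, which acetylates histones and exchanges the variant H2A.Z into chromatin. The controls for these were 4 guides named sgNeg1 to sgNeg4, with 2 libraries each, and in the doxycycline experiment 2 libraries of A382 carrying an inducible p53 (P53) stood against 2 of A382 carrying a control vector (PCW), so that both arms received doxycycline. All libraries came from this 1 cell line, grown in serum. For the 14 targets the 2 libraries carry different guides, so their scatter includes differences between guides, while each control pair is 1 guide. The 4 libraries of BRD8 and of H2AZ are 2 guides with 2 libraries each, and the fits counted them as 4. Nothing in the labels says that libraries of the same guide or vector came from separate cultures. Each p-value therefore reflects only how these libraries scatter, and that scatter may be technical. In such bulk RNA, a change in every cell and a change in a share of the cells cannot be told apart.

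Values are FPKM, fragments scaled by transcript length and by the size of the library. The table fell into 5 sections normalized separately, so every comparison was made inside a section: BRD8 with sgNeg1, H2AZ with sgNeg4, P53 with PCW, the RUVBL1, RUVBL2, MORF4L1 and MORF4L2 knockouts with sgNeg3, and the remaining 10 targets with sgNeg2. Knockouts of a section share their control pair, so their differences are not independent of each other. The 2 columns deposited for the second guides of MEAF6 and VPS72 hold the same values and were left out, which leaves 1 library for each of these targets. A value of 1 FPKM stood for 4.22 to 21.1 fragments per kilobase, depending on the library. The sgNeg1 section registered few single-exon genes: 18 to 21 of 908 reached 1 FPKM there, against 177 to 232 in the other sections. HSPA1B has a single exon and HSPA1A has transcripts with 1 exon, and neither is read in that section. Of 8 glioma or astrocyte markers 4 had a median of at least 1 FPKM (SOX2, VIM, CD44 and EGFR), while GFAP stood at a median of 0.0855 FPKM and OLIG2 and S100B at 0. Of the immune markers CD68 alone reached that level (1 of 4), and of the endothelial and epithelial markers 0 of 3 each did. The targeted mRNA lay below both controls in every library of 14 of the 16 knockouts, the exceptions being TRRAP and MORF4L1. In those 14 its mean ran from 18.6% of control (H2AZ) to 92.8% (MORF4L2), with MEAF6 and VPS72 resting on 1 library each.

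Heat shock proteins are chaperones: they hold unfolded proteins in solution, refold them with ATP, or hand them to degradation. HSPA8 and HSP90AA1 are abundant in most cells, whereas HSPA1A and HSPA1B are strongly stress-inducible, and DNAJB1 (an HSP40) and HSPH1 (HSP110) feed substrate and exchange nucleotide on HSP70. CRYAB (alpha-B-crystallin), HSPB1 (HSP27) and HSPB8 (HSP22) are small heat shock proteins that bind unfolding clients without ATP, and BAG3 links HSPB8 and HSP70 to autophagy. Heat shock factor HSF1 drives many of these genes through heat shock elements, inverted repeats of the unit nGAAn.

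The promoters of 5 members on which the results turn are shown to let the reader see how alike the HSPA1A and HSPA1B rows are in sequence and where the heat shock element letters lie. Promoters for 9 of the 10 members were found in the RefSeq table (build GRCh38.p14), and CRYAB was not among them. Each line holds the 250 bases before a transcription start, 5′ to 3′ on the gene's strand, and capitals mark matches to GAANNTTC or TTCNNGAA, each of which reads the same on both strands. Where the last 3 letters of 1 match are the first 3 of another, they form a longer element of 3 units, also searched on both strands. HSPA1A is on the plus strand at chr6:31815293-31815542, HSPA1B on the plus strand at chr6:31827488-31827737, HSP90AA1 on the minus strand at chr14:102087045-102087294, HSPA8 on the minus strand at chr11:123062137-123062386 and HSPB1 on the plus strand at chr7:76302423-76302672.
HSPA1A: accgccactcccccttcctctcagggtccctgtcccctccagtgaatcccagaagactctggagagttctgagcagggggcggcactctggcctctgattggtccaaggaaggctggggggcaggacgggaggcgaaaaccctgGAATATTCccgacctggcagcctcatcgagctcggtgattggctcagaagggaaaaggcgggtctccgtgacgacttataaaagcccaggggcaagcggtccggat
HSPA1B: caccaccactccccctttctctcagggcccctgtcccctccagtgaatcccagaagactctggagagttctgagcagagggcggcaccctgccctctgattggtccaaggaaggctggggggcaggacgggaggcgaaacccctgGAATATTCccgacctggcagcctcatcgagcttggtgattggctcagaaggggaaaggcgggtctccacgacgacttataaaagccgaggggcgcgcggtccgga
HSP90AA1: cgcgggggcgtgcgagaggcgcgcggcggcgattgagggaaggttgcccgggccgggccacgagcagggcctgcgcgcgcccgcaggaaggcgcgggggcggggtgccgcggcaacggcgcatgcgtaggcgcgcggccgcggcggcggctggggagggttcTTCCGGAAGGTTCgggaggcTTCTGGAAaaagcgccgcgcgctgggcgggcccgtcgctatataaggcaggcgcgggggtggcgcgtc
HSPA8: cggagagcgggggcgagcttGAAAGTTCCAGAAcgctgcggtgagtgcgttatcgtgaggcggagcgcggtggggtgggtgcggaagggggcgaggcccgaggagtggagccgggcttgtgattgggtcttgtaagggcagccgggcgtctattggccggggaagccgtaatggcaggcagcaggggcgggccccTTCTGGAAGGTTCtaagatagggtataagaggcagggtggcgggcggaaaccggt
HSPB1: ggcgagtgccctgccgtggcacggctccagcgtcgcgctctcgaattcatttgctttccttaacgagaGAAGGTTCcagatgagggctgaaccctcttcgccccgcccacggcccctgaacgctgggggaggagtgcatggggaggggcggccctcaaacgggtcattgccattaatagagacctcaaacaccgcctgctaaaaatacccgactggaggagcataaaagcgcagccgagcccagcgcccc

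The HSPA1A and HSPA1B windows are identical at 235 of 250 bases (94%), each with 1 match that begins 106 and 105 bases before the start. HSP90AA1 holds 3 overlapping or neighbouring matches with 1 of the longer form, and HSPA8 holds 4 with 2 of the longer form, each longer match containing both shorter ones. The window of another HSP90AA1 start site, not shown, holds none. HSPB1 and HSPB8 hold 1 match each, DNAJB1 2 in 1 of its 3 start sites, and BAG3 and HSPH1 none in this window. Of 34943 promoter windows of this length, 11.6% held GAANNTTC or TTCNNGAA and 0.441% held the longer form. A match is only a description of the letters. The likeness extends to the mRNAs: 72.6% of the 50-base windows of HSPA1A transcripts also occur in HSPA1B, so the authors' counting may have divided reads between these rows, and their summed FPKM is given beside each result. Windows shared with any other gene came to 17.5% for HSP90AA1, 15.4% for HSPA8, 11.4% for HSPB1 and 2.57% for DNAJB1. For each of them the gene sharing most was a pseudogene (HSP90AA2P, HSPA8P1, HSPB1P1 and DNAJB1P1).

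Tests were made with limma on log2(FPKM + 1), and a gene was called where its p, adjusted by the Benjamini-Hochberg method across every gene tested in the comparison, was under 0.05. All differences below are on that scale with their standard errors (SE), and the added 1 understates changes of genes near or under 1 FPKM. At least 1 member was called in 7 of the 17 comparisons with a control, P53 and 6 knockouts, and none in the other 10 knockouts. Of all tested genes, 3.83% (EP400) to 84.3% (P53) were called in those 7 and 0% to 6.02% (H2AZ) in those 10. The count is to be read against these shares. The largest differences were those of CRYAB, HSPA1B and HSPA1A in P53, followed by HSP90AA1 in TIP60 and BAG3 in P53. In the sgNeg2 section HSPB1 and HSP90AA1 were called most often, and in RUVBL1 and RUVBL2 HSPA1B, HSPH1 and HSPB1 were called in both.

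**Figure D1:**
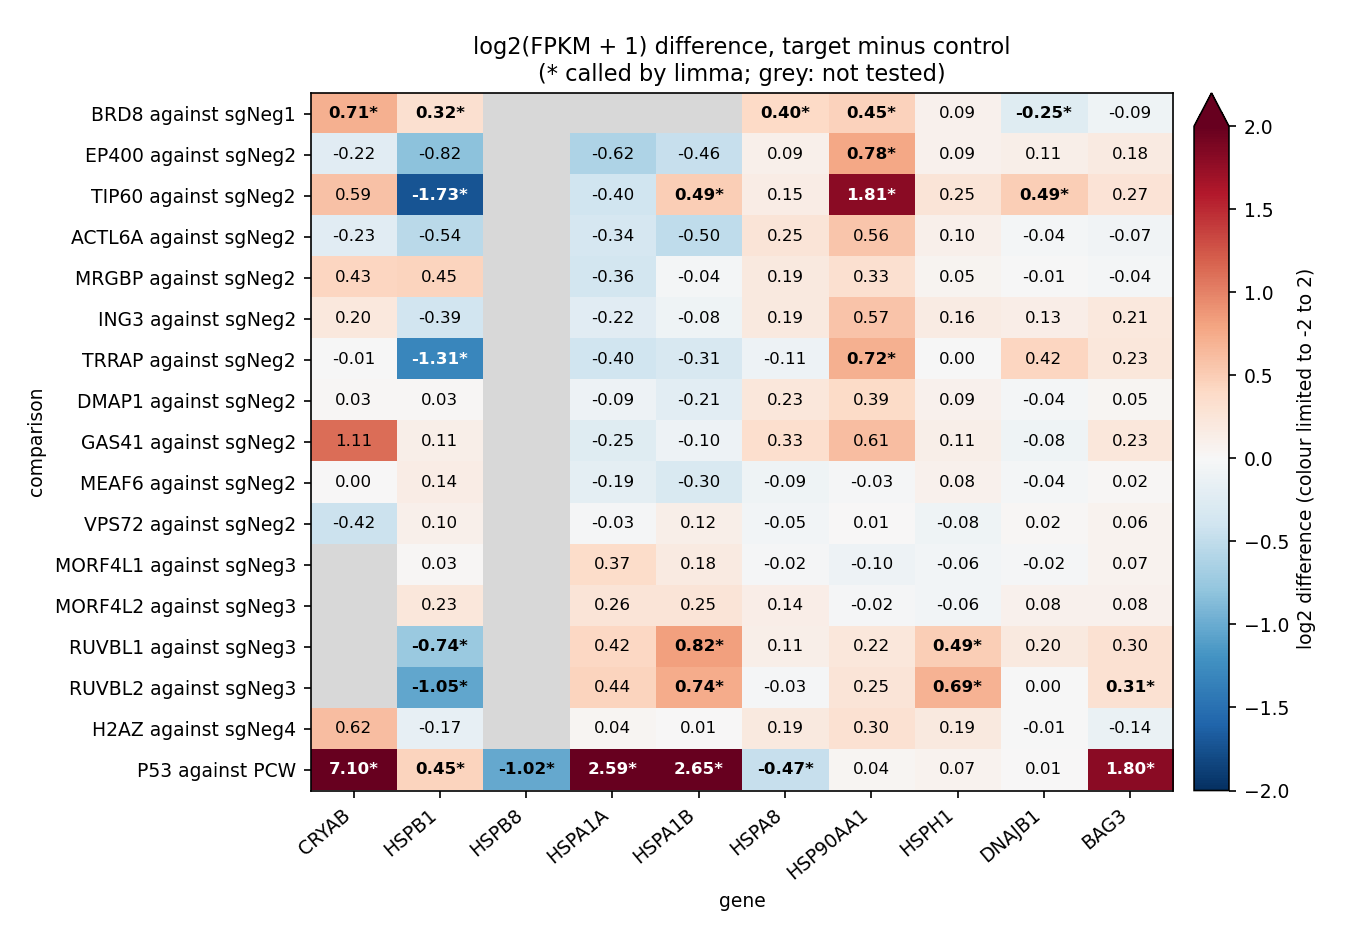
Difference in log2(FPKM + 1) between each target (rows) and its own control pair for the 10 genes (columns), with an asterisk where limma called it and grey where the gene was not tested. HSP90AA1 was called higher in BRD8, EP400, TIP60 and TRRAP, and HSPB1 lower in TIP60, TRRAP, RUVBL1 and RUVBL2 but higher in BRD8 and P53.

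The doxycycline experiment asks which genes follow expression of p53. Of the 10 members, 5 rose with p53 (CRYAB, HSPA1A, HSPA1B, BAG3 and HSPB1), 2 fell (HSPB8 and HSPA8) and 3 were not called (DNAJB1, HSP90AA1 and HSPH1). Calls were very common in this comparison: 37.6% of 12203 tested genes were called higher and 46.7% lower, so a call by itself says little, and the sizes carry the description. The median difference of the members was 0.26, against -0.13 over all tested genes. When each library was rescaled by its median ratio within the section, the median of all genes moved by 0.20 to 0.08, and the share of calls that were higher went from 44.6% to 55.2%.

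CRYAB, a chaperone abundant in lens, muscle and astrocytes, was at 0.399 and 0.196 FPKM in the PCW libraries and at 179 and 174 FPKM in the P53 libraries. The groups were far apart: the PCW values correspond to about 5 and 3 fragments, the P53 values to about 2119 and 2315. The difference was 7.10 ± 0.08 (limma adjusted p = 8.88e-09), and CRYAB entered the test through the P53 libraries alone, so it could only have come out higher. With a pseudocount of 0.1 FPKM the difference was 8.84.

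HSPB1, which caps actin and holds clients under stress, was at 293 and 283 FPKM in PCW and at 435 and 358 FPKM in P53. Both P53 libraries lay above both controls, though they differed from each other by more than the controls did. The rise was 0.45 ± 0.09 (limma adjusted p = 0.00167), and 0.68 after rescaling. HSPB8, the BAG3 partner, went the other way, from 7.70 and 6.15 FPKM to 2.63 and 3.18 FPKM without overlap. Its fall was -1.02 ± 0.12 (limma adjusted p = 0.000121). The partners therefore stood in opposite directions in these libraries, since BAG3 was at 29.3 and 28.5 FPKM in PCW and at 106 and 100.3 FPKM in P53, a rise of 1.80 ± 0.05 (limma adjusted p = 8.14e-08).

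Among the HSP70 genes the inducible pair rose and the constitutive member fell. HSPA1A was at 1.69 and 1.79 FPKM in PCW and at 16.2 and 14.9 FPKM in P53 (2.59 ± 0.08, limma adjusted p = 1.29e-07). HSPA1B was at 6.74 and 6.36 FPKM in PCW and at 46.0 and 46.4 FPKM in P53 (2.65 ± 0.06, limma adjusted p = 3.57e-08). Their sum rose by 2.76 ± 0.05, and HSPA1A made up 20.0% and 22.0% of it in PCW and 26.1% and 24.2% in P53, and the sum thus rose like each row. HSPA8, the constitutive HSP70, was at 632 and 646 FPKM in PCW and at 466 and 457 FPKM in P53. The fall, -0.47 ± 0.04 (limma adjusted p = 2.32e-05), was -0.24 after rescaling. HSPA8 nevertheless remained the highest of the 10 in P53, where its mean was 462 ± 5.95 FPKM (SD, n = 2).

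HSP90AA1, HSPH1 and DNAJB1 stood near their controls in these libraries. HSP90AA1 was at 405 and 401 FPKM in PCW and at 411 and 417 FPKM in P53 (0.04 ± 0.04, limma adjusted p = 0.373). HSPH1 was at 36.4 and 35.0 FPKM and at 37.9 and 36.9 FPKM (0.07, limma adjusted p = 0.242), and DNAJB1 at 56.5 and 58.0 FPKM and at 56.5 and 59.1 FPKM (0.01, limma adjusted p = 0.804). These 3 calls depend on the scaling: after rescaling they were called higher, by 0.27, 0.29 and 0.24. Ordered by mean FPKM in PCW, HSPA8 (639) was followed by HSP90AA1 (403), HSPB1 (288), DNAJB1 (57.3), HSPH1 (35.7), BAG3 (28.9), HSPB8 (6.92), HSPA1B (6.55), HSPA1A (1.74) and CRYAB (0.297). HSPB8 and HSPA1B overlap in that order.

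**Figure D2:**
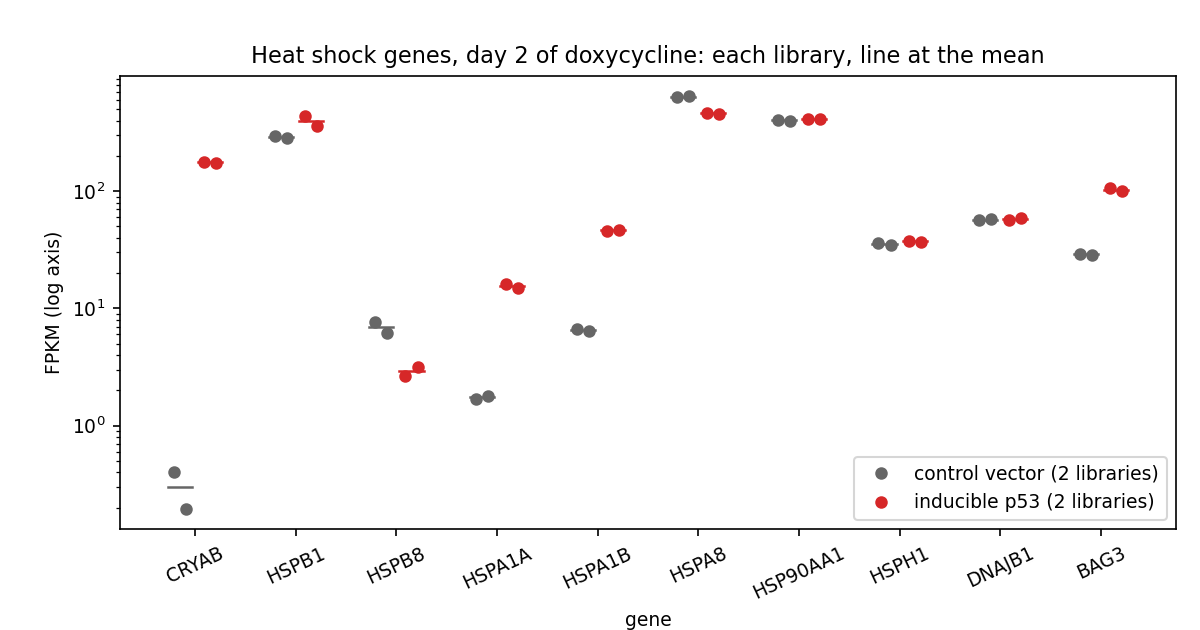
FPKM (log axis) of the 10 genes in each of the 2 PCW libraries (grey) and 2 P53 libraries (red), with a line at each mean. CRYAB lies below 1 FPKM in PCW and near 176 FPKM in P53, while DNAJB1, HSPH1 and HSP90AA1 lie at about the same level in both.

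Other chaperone genes were called in both directions, as were most genes in this comparison (37.6% higher and 46.7% lower, median -0.13), and the counts are to be read against those shares. Of 24 genes listed as HSF1-inducible, 22 were tested, 5 rose and 14 fell (median -0.30), among them the death effector domain gene DEDD2 (3.40 ± 0.05), the mitochondrial chaperonin HSPD1 (-1.66 ± 0.04), MRPL18 (1.65 ± 0.04) and the strictly inducible HSP70 gene HSPA6 (2.54 ± 0.08). Of 3 tested other small heat shock genes 2 rose, HSPB3 (3.74 ± 0.11) and HSPB2 (1.65 ± 0.08), the latter being the neighbour of CRYAB. Of 17 tested cochaperones 6 rose and 11 fell (median -0.36), with DNAJB2 at 1.92 ± 0.05, BAG1 at 1.15 ± 0.06, DNAJC7 at -1.13 ± 0.05 and BAG2 at -1.38 ± 0.07. Of 6 other HSP70 genes 1 rose, HSPA12A (2.52 ± 0.07), and 4 fell, with the mitochondrial HSPA9 at -0.67 ± 0.04. Of 6 partners of chaperone-assisted autophagy 3 rose and 3 fell, with the receptor SQSTM1 at 1.58 ± 0.05 and the filamin FLNC, a BAG3 client, at 1.17 ± 0.05. The heat shock factor list also holds HSBP1, the gene of a factor-binding protein. Of its 4 tested genes 1 rose (HSF4, 0.73 ± 0.13) and 2 fell (HSF2, -0.96 ± 0.08, and HSBP1, -0.88 ± 0.05), and HSF1 itself was not called.

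In the sgNeg2 section the question is which knockouts of complex subunits change these genes. TIP60, the acetyltransferase, had the most members called: of 9 tested, HSP90AA1, DNAJB1 and HSPA1B rose and HSPB1 fell, against 15.4% of 11382 tested genes called higher and 26.6% lower. HSP90AA1, the stress-inducible cytosolic HSP90, was at 397 and 397 FPKM in sgNeg2 and at 1506 and 1285 FPKM in TIP60, which is 352% of control by mean. Both TIP60 libraries were far above every other library of the section, and the rise was 1.81 ± 0.19 (limma adjusted p = 5.67e-06). HSPB1 was at 235 and 194 FPKM in sgNeg2 and at 79.5 and 50.8 FPKM in TIP60. It stood at 30.4% of control without overlap and fell by 1.73 ± 0.25 (limma adjusted p = 6.56e-05).

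DNAJB1 was at 98.5 and 84.9 FPKM in sgNeg2 and at 138 and 119 FPKM in TIP60 (0.49 ± 0.14, limma adjusted p = 0.0111). HSPA1B was at 4.02 and 3.83 FPKM in sgNeg2 and at 6.96 and 4.99 FPKM in TIP60 (0.49 ± 0.16, limma adjusted p = 0.0198). HSPA1A was lower in the same libraries, at 3.95 and 3.69 FPKM in sgNeg2 and at 3.08 and 2.24 FPKM in TIP60 (-0.40, limma adjusted p = 0.0755), so that its share of the pair was 49.6% and 49.0% in sgNeg2 but 30.7% and 31.0% in TIP60. The sum of the pair was not called (0.13 ± 0.17, limma adjusted p = 0.572), so the HSPA1B call holds for that row and not for the pair. The calls of DNAJB1 and HSPA1B did not survive every left-out library: without sgNeg2 replicate 2 both were lost (limma adjusted p = 0.107 and 0.0894), without TIP60 guide 1 both were lost (0.0813 and 0.210, HSPA1B then at 0.28), and without sgNeg2 replicate 1 HSPA1B was lost (0.0581). Rescaling moved the median of all genes from -0.09 to 0.02 and the share of calls that were higher from 36.7% to 51.3%, and then also called HSPH1 (0.38) and BAG3 (0.41) higher.

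In EP400, the ATPase that exchanges H2A.Z, HSP90AA1 rose. It was at 711 and 655 FPKM, above both controls, a rise of 0.78 ± 0.19 (limma adjusted p = 0.034). HSP90AA1 was the 1 member called, where 1.56% of genes were called higher and 2.27% lower, and the call was lost without any one of the 4 libraries (limma adjusted p = 0.133 to 0.260). HSPB1 was at 125 and 116 FPKM, below both controls, and did not pass (-0.82 ± 0.25, limma adjusted p = 0.073). HSPA1A, at 1.86 and 2.43 FPKM, and HSPA1B, at 2.38 and 2.78 FPKM, also lay below both controls without passing (-0.62 and -0.46, limma adjusted p = 0.0587 and 0.110). In a fit on the EP400 and sgNeg2 libraries alone, HSPB1, HSPA1A and HSPA1B were called lower (limma adjusted p = 0.00514, 0.0148 and 0.0314). The spread there rests on 4 libraries, so these calls depend on the fit. In a direct comparison of TIP60 with EP400, 3 members were called, against 7.82% of genes higher and 13.5% lower, a split in which 36.8% of calls were higher, or 52.1% after rescaling. HSP90AA1 was higher in TIP60 by 1.03 ± 0.19 (limma adjusted p = 0.00143) and HSPA1B by 0.95 ± 0.16 (0.00077), with the summed HSPA1 pair higher by 0.74 (limma adjusted p = 0.00598). Against sgNeg2 that sum stood at -0.61 in EP400 (limma adjusted p = 0.0523) and at 0.13 in TIP60 (limma adjusted p = 0.572), neither called. The HSPA1B row stood at -0.46 in EP400 and at 0.49 in TIP60. These values rest on the same control pair, and how the gap divides between the knockouts was not tested. HSPB1 was lower in TIP60 by -0.91 ± 0.25 (limma adjusted p = 0.0166), a call lost without either EP400 library or without TIP60 guide 2 (0.0708 to 0.134).

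TRRAP, the scaffold subunit, had HSPB1 at 108 and 67.6 FPKM and HSP90AA1 at 625 and 682 FPKM. Neither gene overlapped its controls: HSPB1 fell by 1.31 ± 0.25 (limma adjusted p = 0.00454) and HSP90AA1 rose by 0.72 ± 0.19 (limma adjusted p = 0.0204). Over all genes 6.54% were called higher and 7.71% lower. DNAJB1, at 122 and 124 FPKM, did not pass (0.42, limma adjusted p = 0.0536), but was called higher after rescaling (0.44, limma adjusted p = 0.023). Without sgNeg2 replicate 1 or without TRRAP guide 2 neither member was called (limma adjusted p = 0.0504 and 0.123 for HSPB1, 0.106 and 0.204 for HSP90AA1), and without sgNeg2 replicate 2 HSPB1 alone was.

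**Figure D3:**
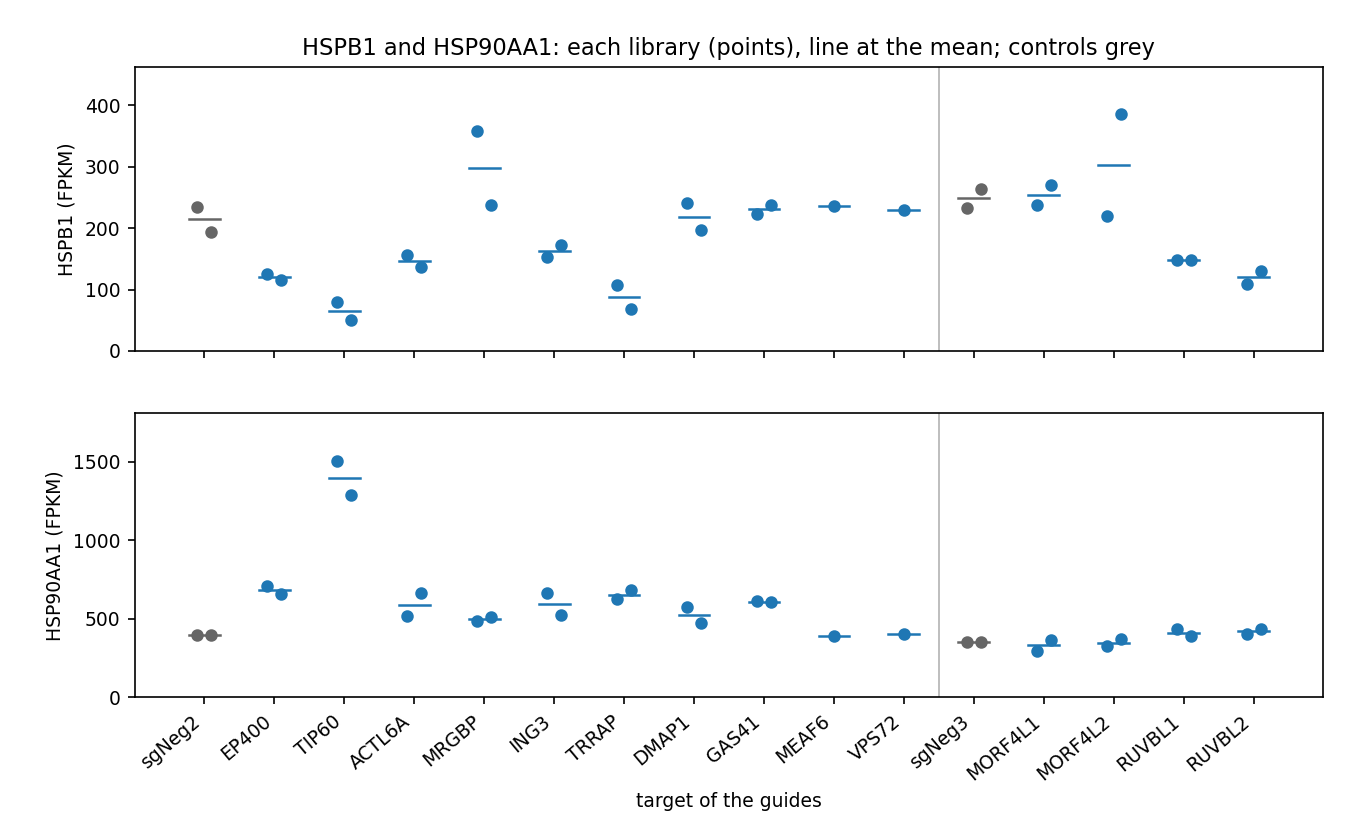
FPKM of HSPB1 (upper panel) and HSP90AA1 (lower panel) in each library of the sgNeg2 and sgNeg3 sections, with a line at the mean of each target and the controls in grey. TIP60 has the lowest mean HSPB1 (65.1 FPKM, with TRRAP at 87.8 FPKM) and both of the highest HSP90AA1 libraries (1506 and 1285 FPKM).

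Around these members, the collagen chaperone SERPINH1 fell in TIP60 (-2.39 ± 0.21) and TRRAP (-1.19 ± 0.21), and the heat shock factor HSF4 fell in EP400 (-0.84 ± 0.15), TIP60 (-1.32 ± 0.15) and TRRAP (-0.85 ± 0.15). The HSF1-inducible list counted 2 risen and 3 fallen of 21 in TIP60 (median -0.05, against -0.09 for all genes), 1 and 0 in EP400, and 0 and 2 in TRRAP. The HSP40 gene DNAJB4 rose in TIP60 (1.47 ± 0.20) and EP400 (0.96 ± 0.20), IER5 rose in TIP60 (1.06 ± 0.12), and the HSP90 cochaperone FKBP4 fell there (-0.54 ± 0.17). Of 18 cochaperones 3 rose and 4 fell in TIP60, close to the shares of all genes there (15.4% and 26.6%), led by FKBP5 (0.89 ± 0.14), and 3 rose and 1 fell in TRRAP (6.54% and 7.71% of all genes). The autophagy partners counted 4 risen and 0 fallen of 6 in TIP60 (median 0.63), with SQSTM1 at 1.96 ± 0.28 and FLNC at 1.72 ± 0.25.

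No member was called by limma in the other 7 knockouts of this section, where 0.782% of all genes were called in ACTL6A, 0.264% in MRGBP, 0.0264% in ING3, 0.94% in GAS41 and 0% in DMAP1, MEAF6 and VPS72. At an unadjusted p under 0.05, ACTL6A had 3 of 9 tested members, where 15.6% of all genes lay, GAS41 had 2 (16.9% of genes), ING3 had 1 (9.53% of genes) and the others 0, so the GAS41 and ING3 counts are near the background. HSP90AA1 nevertheless lay above both controls in ACTL6A (516 and 661 FPKM), MRGBP (486 and 510), ING3 (662 and 526), DMAP1 (572 and 471) and GAS41 (611 and 605), with differences of 0.33 to 0.61, the largest in GAS41 (limma adjusted p = 0.113). In MEAF6 (390 FPKM) and VPS72 (400 FPKM) it stood at -0.03 and 0.01. HSP90AA1 above this shared control pair is therefore not particular to EP400, TIP60 and TRRAP, where it was called. HSPB1 was less uniform, at -0.54 in ACTL6A, -0.39 in ING3, 0.03 in DMAP1, 0.11 in GAS41 and 0.45 in MRGBP. CRYAB was at 0.941 and 3.31 FPKM in GAS41 against 0.560 and 0.151 FPKM in sgNeg2. Both GAS41 libraries were above both controls, but they differed widely, and the difference of 1.11 ± 0.31 did not pass (limma adjusted p = 0.0929) except without guide 1. In this section CRYAB reached 1 FPKM in knockout libraries alone, so it entered the test through them.

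RUVBL1 and RUVBL2 are partner ATPases that form 1 ring in this complex and in others. Of 8 tested members HSPA1B and HSPH1 rose and HSPB1 fell in both knockouts, and BAG3 rose in RUVBL2. The background was 12.3% of 11063 genes higher and 15.5% lower in RUVBL1, and 13.5% and 19.9% in RUVBL2. HSPH1 was at 12.8 and 13.0 FPKM in sgNeg3, at 19.3 and 17.8 FPKM in RUVBL1 and at 21.3 and 21.6 FPKM in RUVBL2. The groups did not overlap, and the rises were 0.49 ± 0.11 (limma adjusted p = 0.0105) and 0.69 ± 0.11 (limma adjusted p = 0.00168).

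HSPA1B was at 3.90 and 3.59 FPKM in sgNeg3, at 7.46 and 7.25 FPKM in RUVBL1 and at 6.29 and 7.57 FPKM in RUVBL2. All 4 knockout libraries lay above both controls, with rises of 0.82 ± 0.14 (limma adjusted p = 0.00371) and 0.74 ± 0.14 (limma adjusted p = 0.00407). HSPA1A, at 3.32 and 4.13 FPKM in sgNeg3, was at 5.63 and 4.97 FPKM in RUVBL1 and at 4.67 and 6.18 FPKM in RUVBL2, also without overlap, and did not pass (0.42 and 0.44, limma adjusted p = 0.0777 and 0.0602). After rescaling HSPA1A was called higher in RUVBL2 (0.48, limma adjusted p = 0.0338). Unlike in TIP60, the sum of the pair was called here, at 0.69 ± 0.14 in RUVBL1 and 0.65 ± 0.14 in RUVBL2 (limma adjusted p = 0.0095 and 0.00916). The contrast between these sections was not tested.

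HSPB1 was at 234 and 264 FPKM in sgNeg3, at 148 and 149 FPKM in RUVBL1 and at 110 and 131 FPKM in RUVBL2. It stood at 59.7% and 48.3% of control, a fall of -0.74 ± 0.24 (limma adjusted p = 0.0479) and of -1.05 ± 0.24 (limma adjusted p = 0.0102). BAG3, at 25.5 and 24.5 FPKM in sgNeg3, was at 31.1 and 31.0 FPKM in RUVBL1 (0.30, limma adjusted p = 0.0509) and at 31.5 and 31.1 FPKM in RUVBL2 (0.31 ± 0.10, limma adjusted p = 0.0384). After rescaling BAG3 was called higher in RUVBL1 too (0.31, limma adjusted p = 0.0385). All 4 knockout libraries again lay above both controls. The HSPB1 call in RUVBL1 was lost without any one of the 4 libraries (limma adjusted p = 0.136 to 0.228), the HSPH1 call in RUVBL1 without either control or without RUVBL1 guide 1 (0.0594 to 0.0843), the BAG3 call in RUVBL2 without any one library (0.143 to 0.218), and the HSPB1 call in RUVBL2 without sgNeg3 replicate 2 (0.0795) or RUVBL2 guide 1 (0.0826). Only the HSPA1B calls and the HSPH1 call in RUVBL2 held in every left-out fit.

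**Figure D4:**
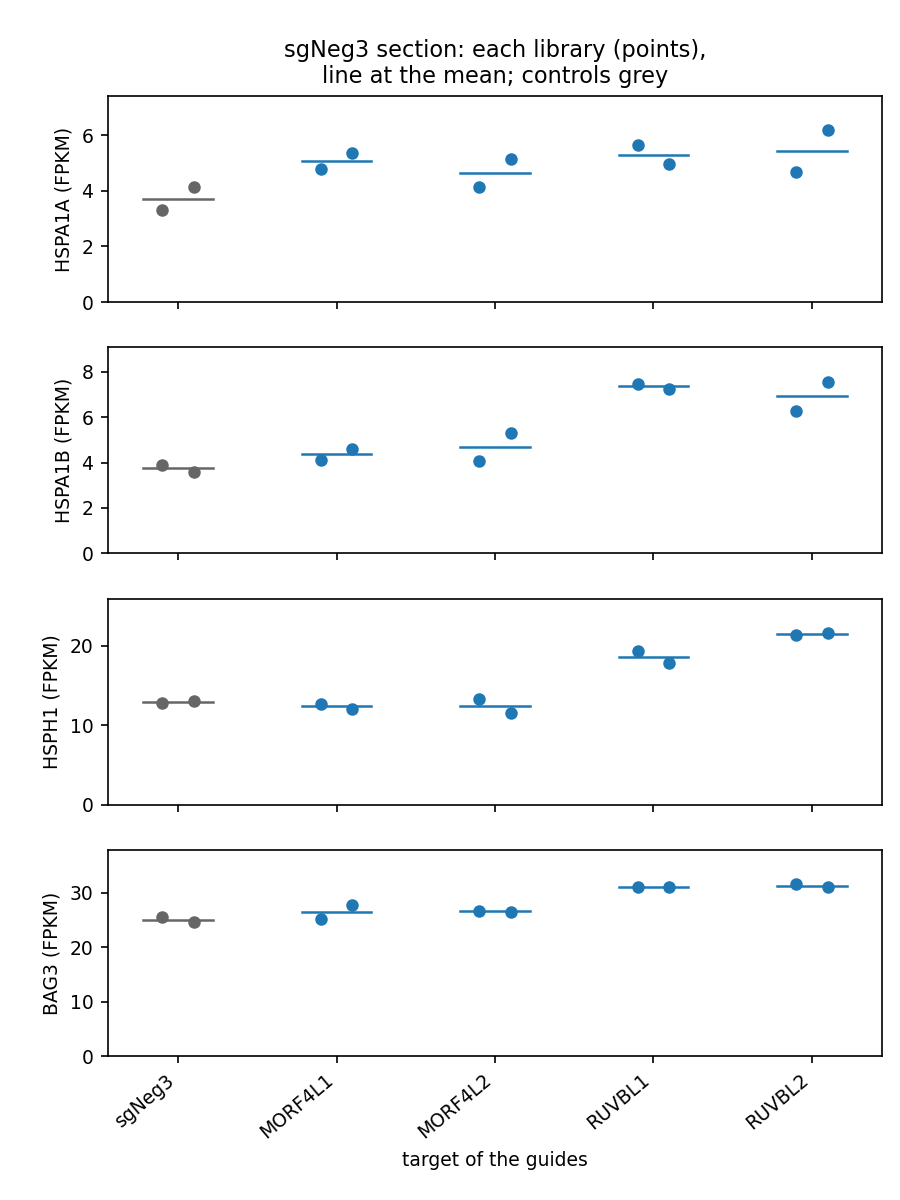
FPKM of HSPA1A, HSPA1B, HSPH1 and BAG3 in each library of the sgNeg3 section, with a line at each mean and the controls in grey. RUVBL1 and RUVBL2 libraries lie above both controls in all 4 panels, for example HSPH1 at 17.8 to 21.6 FPKM against 12.8 and 13.0. HSPA1A and HSPA1B also lie above both controls in MORF4L1 and MORF4L2. Of the tested members not shown, HSP90AA1 lay above both controls and HSPB1 below both in each of these knockouts of RUVBL1 and RUVBL2. HSPA8 and DNAJB1 lay above both in RUVBL1 and overlapped the controls in RUVBL2. The share of all genes lying above both controls is not given here.

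Compared directly, RUVBL2 and RUVBL1 differed in no member by limma, and 0.00904% of genes, 1 gene, were called at all, with 594 at an unadjusted p under 0.05. The difference in HSPH1 was 0.20 ± 0.11 and in HSPB1 -0.31 ± 0.24. Of 22 tested HSF1-inducible genes 4 rose and 1 fell in RUVBL1 (median 0.25) and 6 rose and 1 fell in RUVBL2 (median 0.13), where the medians over all genes were -0.02 and -0.05. ZFAND2A, a proteasome-associated gene induced by arsenite, rose by 2.12 ± 0.23 and 1.94 ± 0.23, DEDD2 by 1.27 ± 0.24 and 1.30 ± 0.24, and HSPA4L, an HSP110 relative, by 0.71 ± 0.14 and 1.09 ± 0.14, while SERPINH1 fell (-0.52 ± 0.12 and -0.88 ± 0.12). Over all genes 12.3% rose and 15.5% fell in RUVBL1, and 13.5% and 19.9% in RUVBL2. Of 17 cochaperones 6 rose and 1 fell in RUVBL1 and 5 rose and 2 fell in RUVBL2, with BAG1 at 1.41 ± 0.22 and 1.40 ± 0.22, DNAJB2 at 1.14 ± 0.16 and 1.16 ± 0.16 and DNAJB5 at -0.97 ± 0.12 and -1.25 ± 0.12. HSF2 fell in both (-0.58 ± 0.13 and -0.67 ± 0.13), as did HSF4 (-0.67 ± 0.19 and -1.01 ± 0.19).

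MORF4L1 and MORF4L2, chromodomain-family subunits of the same section, had no member called by limma, and 0% of genes were called in either, with 85 and 230 genes at an unadjusted p under 0.05. The members at that level were 1 in MORF4L1 (HSPA1A) and 0 in MORF4L2. The targeted mRNA itself stood at 103% of control in MORF4L1 and at 92.8% in MORF4L2. HSPA1A lay above both controls here too, at 4.80 and 5.37 FPKM in MORF4L1 (0.37) and at 4.14 and 5.15 FPKM in MORF4L2 (0.26), as did HSPA1B, at 4.12 and 4.61 FPKM (0.18) and at 4.06 and 5.31 FPKM (0.25), so lying above this shared control pair is not particular to RUVBL1 and RUVBL2. HSPB1 was at 237 and 271 FPKM in MORF4L1 and at 220 and 385 FPKM in MORF4L2, where without guide 1 it was called higher (0.63, limma adjusted p = 0.0425). The MORF4L2 guides thus gave HSPB1 levels below and above those of the control pair.

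BRD8, the bromodomain subunit, was compared with sgNeg1 in a section where HSPB8, HSPA1A and HSPA1B did not reach the level needed for a test. Of the 7 tested members CRYAB, HSPB1, HSPA8 and HSP90AA1 rose and DNAJB1 fell, where 24.2% of 8458 genes were called higher and 21.7% lower. HSP90AA1 was at 133 and 133 FPKM in sgNeg1 and at 180 to 186 FPKM in the 4 BRD8 libraries (mean 183 ± 3.08, SD), a rise of 0.45 ± 0.05 (limma adjusted p = 0.000132). HSPA8 was at 158 and 153 FPKM in sgNeg1 and at 207 and 209 FPKM with guide 1 and 206 and 201 FPKM with guide 2 (0.40 ± 0.05, limma adjusted p = 0.000299). For both genes the 4 knockout libraries lay close together and above both controls.

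HSPB1 was at 57.4 and 56.9 FPKM in sgNeg1 and at 74.1, 77.0, 70.0 and 65.9 FPKM in BRD8, a rise of 0.32 ± 0.07 (limma adjusted p = 0.00389). This direction is opposite to that in TIP60 and RUVBL2. Fits over both sections were added after the values had been seen, for TIP60 and RUVBL2, which had the lowest HSPB1 relative to control in their sections. In them the BRD8 effect on HSPB1 exceeded the TIP60 effect by 2.05 ± 0.29 (limma adjusted p = 4.44e-05). It exceeded the RUVBL2 effect by 1.37 ± 0.26 (limma adjusted p = 0.00231). Of all genes 22% and 14.1% were called in that direction. The same values chose these contrasts, so their p-values are descriptive and give no separate support. The control pair and the normalization also differ between those sections, and their part was not tested. CRYAB was at 0.0730 and 0.513 FPKM in sgNeg1 and at 1.10, 1.12, 1.09 and 1.01 FPKM in BRD8, or about 1 and 11 fragments against 19 to 26.

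CRYAB passed the filter through the knockout libraries alone and could only come out higher, at 0.71 ± 0.12 (limma adjusted p = 0.00104). The size depends on the control: it was 0.46 without sgNeg1 replicate 1, 0.96 without replicate 2 and 1.86 with a pseudocount of 0.1 FPKM. DNAJB1, at 5.76 and 5.52 FPKM in sgNeg1, was at 4.14, 4.69, 4.55 and 5.01 FPKM in BRD8, below both controls. Its fall of -0.25 ± 0.07 (limma adjusted p = 0.0204) was lost without sgNeg1 replicate 1 (0.134), without replicate 2 (0.0702) and with guide 2 alone (0.0685). BAG3 (-0.09) and HSPH1 (0.09) did not pass. DNAJB1 and BAG3 stood far lower in this section than in the others. DNAJB1 had a median of 4.85 FPKM here and of 57.3 to 148 FPKM elsewhere, and BAG3 of 2.34 against 27.1 to 64.8 FPKM. HSPB1, HSPA8, HSP90AA1 and HSPH1 also had lower medians here, at 67.9, 203, 180 and 7.38 FPKM. Their lowest medians elsewhere were 194, 549, 367 and 13.0 FPKM. The reason was not tested, so the DNAJB1 fall and the absence of a BAG3 call in BRD8 are uncertain. Whether it bears on the differences of the other members was not tested either.

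**Figure D5:**
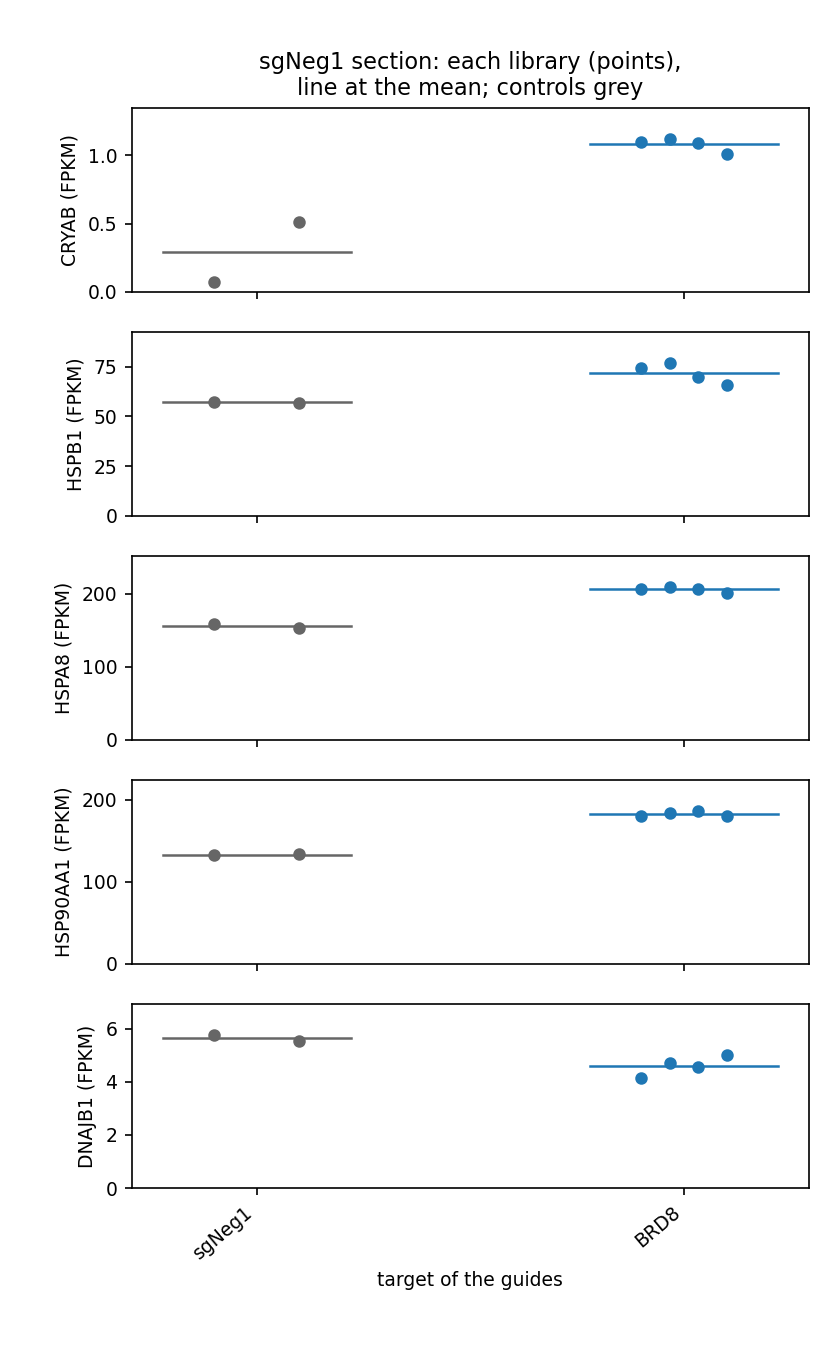
FPKM of the 5 members called in BRD8, in each sgNeg1 library (grey, n = 2) and BRD8 library (blue, n = 4: guide 1, then guide 2), with a line at each mean. The 4 BRD8 libraries lie above both controls for CRYAB, HSPB1, HSPA8 and HSP90AA1 and below both for DNAJB1.

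Of 20 tested HSF1-inducible genes 10 rose and 1 fell in BRD8 (median 0.17, against 0.02 for all genes, of which 24.2% rose and 21.7% fell), with the constitutive HSP90 gene HSP90AB1 at 0.56 ± 0.05, HSPD1 at 0.53 ± 0.06, CHORDC1 at 0.39 ± 0.06 and HSPA4 at 0.31 ± 0.06. Of 5 other HSP70 genes HSPA9 (0.66 ± 0.07) and HSPA13 (0.26 ± 0.07) rose. Of 13 cochaperones 3 rose, about the share of all genes, and 1 fell, with CDC37, which loads kinases onto HSP90, at 0.51 ± 0.07 and BAG6 at -0.31 ± 0.05. Of 6 autophagy partners 5 rose and 1 fell (median 0.69), with SQSTM1 at 1.35 ± 0.10, FLNC at 0.91 ± 0.08 and LAMP2 at -0.38 ± 0.07. HSF1 rose by 0.37 ± 0.07, and HSF4 fell (-0.57 ± 0.08).

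The BRD8 and p53 effects were set against each other in 1 fit over both sections, in which 7 members and 8249 genes were tested and 48.3% of genes were called higher in BRD8 than in P53 and 28.3% lower. The median difference over all genes was 0.24, and 0.02 after rescaling, which moved the share of calls that were higher from 63.1% to 50.9%. CRYAB differed by -6.39 ± 0.17 (limma adjusted p = 3.68e-11), rising less in BRD8 than in P53, and BAG3, which rose in P53 and was not called in BRD8, by -1.89 ± 0.09 (limma adjusted p = 2.54e-09). CRYAB entered this fit through the BRD8 and P53 libraries alone. Both of its effects could therefore only come out higher, and its p-value here is descriptive. HSPA8 differed by 0.87 ± 0.07 (limma adjusted p = 1.45e-07), rising in BRD8 and falling with p53, and HSP90AA1 by 0.41 ± 0.07 (limma adjusted p = 9.03e-05). DNAJB1 differed by -0.26 ± 0.10 (limma adjusted p = 0.0268), a call lost without sgNeg1 replicate 1, without either PCW library or without P53 replicate 2 (limma adjusted p up to 0.0921). HSPB1 (-0.13 ± 0.12, limma adjusted p = 0.320) and HSPH1 (0.03 ± 0.08, limma adjusted p = 0.784) were not called, and both were called lower in BRD8 after rescaling (-0.38 and -0.22). BAG3 and DNAJB1 stood far lower in sgNeg1 (mean 2.48 and 5.64 FPKM) than in PCW (28.9 and 57.3 FPKM). The added 1 FPKM therefore weighs more on their BRD8 effects, and the sizes of their differences are uncertain. The control, the normalization and the time of collection also differ between these sections, and their part was not tested.

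H2AZ, the histone variant, had 4 knockout libraries against sgNeg4 and no member called by limma, with 6.02% of 11087 genes called. At an unadjusted p under 0.05 there were 2 of 9 tested members and 21.1% of all genes, so that count is at the background. HSP90AA1 was at 618 and 604 FPKM in sgNeg4 and at 674, 757, 781 and 803 FPKM in H2AZ, above both controls (0.30 ± 0.12, limma adjusted p = 0.203). CRYAB was at 0.947 and 0.291 FPKM in sgNeg4 and at 1.01, 1.69, 2.36 and 0.941 FPKM in H2AZ, and the groups overlap (0.62 ± 0.25, limma adjusted p = 0.185). Here too CRYAB entered the test through knockout libraries alone. This section had the shallowest libraries, where the CRYAB values stand for about 1 to 16 fragments. Around the members DNAJB4 (0.74 ± 0.11), HSPA9 (0.67 ± 0.10), SQSTM1 (0.61 ± 0.11) and FLNC (0.79 ± 0.14) rose.

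Over the 37 distinct guide RNA columns outside the sgNeg1 section the members differed widely in how far they ranged. HSP90AA1 ran from 297 to 1506 FPKM (median 516) and HSPB1 from 50.8 to 385 FPKM (median 224), while HSPA8 (498 to 1231 FPKM), DNAJB1 (80.5 to 164), BAG3 (24.5 to 43.6) and HSPH1 (10.3 to 24.7) ran over narrower ranges that also include the different scales of the sections. HSPA1A ran from 1.86 to 7.43 FPKM and HSPA1B from 2.31 to 9.21 FPKM. CRYAB reached 1 FPKM in 6 of the 37 columns and HSPB8 in 0, its highest value being 0.448 FPKM in TIP60.

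The genes whose pattern was most like that of a member were taken over these 37 columns and 10825 genes, as Pearson's r of log2(FPKM + 1) after subtracting each section's mean. The columns share their section's normalization and controls, so r is only a description. HSPB1 was most like PCOLCE (0.968), PAFAH1B3 (0.960) and MPST (0.950). HSP90AA1 was most like NFE2L3 (0.933), NMT2 (0.932) and CD82 (0.932), and HSPH1 most like ZKSCAN5 (0.888), EIF5 (0.888) and EDA2R (0.883). DNAJB1 led with BORCS7 (0.873), HSPA8 with HSP90AB1 (0.812), BAG3 with KRT18 (0.806), HSPA1B with TMEM242 (0.798) and HSPA1A with CCDC107 (0.774). Between members, HSPB1 ran against HSP90AA1 (-0.758) and HSPH1 (-0.577).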

How the data were processed

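Polyadenylated RNA of A382 cells was measured in 48 libraries with strand-specific kits. The authors deposited 1 table of FPKM values for 19102 genes, with no counts. The tools TopHat2, Cufflinks and Cuffdiff are listed with build hg19, per the submitters' processing notes; versions, roles and gene annotation are not given in the sources used here. Column names gave the library of each column, with 0 left over. The identical column of MEAF6 and VPS72 was left out, so 46 columns entered the fits. The level of the induced gene in the doxycycline experiment is not reported here.

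Within each section, genes with at least 1 FPKM in at least 2 libraries were analysed as log2(FPKM + 1), with a pseudocount of 1 FPKM. limma 3.58.1 in R 4.3.3 (a linear model with 1 level per target and a trended empirical Bayes variance, two-sided) gave differences, SE and p-values with Benjamini-Hochberg adjustment over all tested genes. The spread for MEAF6 and VPS72, left with 1 library, came from the rest of the section. The procedure was tested on simulated data. Depth was estimated from the smallest steps among low FPKM values, and fragment numbers are approximate. Exons and shared 50-base windows came from GENCODE 29 (GRCh38), and promoters from RefSeq.

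The members, the lists of other chaperone genes, the markers and the tests were chosen with earlier results of these data known. By rule, every member was named where it was called and up to 4 called genes per list with the smallest adjusted p. Alternatives were another pseudocount, no filter, rescaling by median ratios, a fit on the libraries of a comparison alone, leaving out each library, a replicate block, single guides and the summed HSPA1A and HSPA1B rows.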

Additional observations from a re-analysis of the deposited data

Results flagged for a closer look

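In H2AZ, HSPB8 was at 0.139 FPKM in guide 1 replicate 2, against 0.0694 to 0.0807 FPKM in the other 3 libraries. It stood out from its group by Dixon's criterion, 1 of 20 groups tested, where chance alone is expected to mark about 1 in 20, and it rests on about 2 fragments against 1.

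TIP60 and EP400 differed directly by -0.91 in HSPB1, 0.95 in HSPA1B and 1.03 in HSP90AA1 (log2 scale, TIP60 minus EP400). The effects of BRD8 knockout and of p53 differed by -6.39 in CRYAB, 0.87 in HSPA8, -0.26 in DNAJB1, 0.41 in HSP90AA1 and -1.89 in BAG3 (BRD8 minus P53). CRYAB entered that fit through the BRD8 and P53 libraries alone. The sections compared there differ in control, normalization and time of collection, and the part of these was not tested.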

How the results depend on the processing

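No called member changed direction under any alternative: of the recomputed values, 274 stayed called and 45 did not. Of the recomputed counts of called members, 148 were within 1.5 times the reported count and 23 were not. Without the filter on low values, EP400 had 0 members called (reported 1) and the BRD8 and P53 difference 8 (reported 5). In a fit on the libraries of the comparison alone, the counts were 4 for EP400 (reported 1), 2 for TIP60 (4), 1 for TRRAP (2), 1 for GAS41 (0), 7 for RUVBL1 (3) and 1 for TIP60 against EP400 (3). Leaving out 1 library at a time gave 0 for EP400, 2 to 5 for TIP60, 0 to 2 for TRRAP, 0 to 1 for GAS41 and for MORF4L2, 1 to 2 for RUVBL1 and 2 to 3 for RUVBL2, where a target left with 1 library is assumed to vary like the others. Labels share only replicate numbers in BRD8, H2AZ and P53. A replicate block there left 5, 0 and 7 members called, the same counts as without it. Depth limits CRYAB and HSPB8, which stand for few fragments in most guide libraries, and counting intervals are not given because FPKM holds no counts.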
